A study of Mus musculus with 2 samples.

Results

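The periportal end of the liver lobule is described here through 4002 hepatocytes, of 26683 hepatocytes in all, that stood at the portal end of a ranking of single cells. They were chosen by measured values. Each hepatocyte was given a score, the log2 ratio of its counts of 4 central genes (Cyp2e1, Oat, Glul and Gulo) over its counts of 4 portal genes (Cyp2f2, Hal, Sds and Aldh1b1), with 1 count added to each sum. Cells of both libraries were ranked together, and the lowest 15% of the scores were taken. A count is a unique molecular identifier (UMI), that is 1 captured RNA molecule. Cells entered the ranking with 2000 to 10000 genes, at most 100000 UMIs, at most 5% mitochondrial UMIs, and at most 2 UMIs of Ptprc, Pecam1 and Dcn together, which mark leukocytes, endothelial cells and fibroblasts.

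Blood enters the lobule at the portal triad and leaves at the central vein, and hepatocytes divide their work along this path. Portal hepatocytes are known for amino acid breakdown, urea synthesis and glucose production. Central hepatocytes carry glutamine synthesis, bile acid synthesis and most drug-metabolising cytochromes P450, under Wnt signals from the central vein, and carbon tetrachloride (CCl4) injures them because Cyp2e1 activates it.

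The cells came from heterozygous male p16-Tom mice, in which Cre-ERT2 under the p16Ink4a promoter and an R26-CAG-LSL-tdTomato reporter mark cells that transcribe the p16Ink4a gene when tamoxifen is given. Both groups shared 4 weeks of CCl4 and tamoxifen, and no untreated liver is compared here. Livers were fixed and dissociated, and cells positive for Hoechst and MitoBrilliant, which mark nuclei and mitochondria, were sorted. They were divided by tdTomato into a Tom- (p16low) and a Tom+ (p16high) fraction, with 1 library each. The number of mice behind a library is not stated, so replicate error is unknown, and the groups are compared by size alone without p-values. Every interval below is at 95% and covers counting error only.

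The Tom- library held 23220 barcodes and the Tom+ library 16339, with 681279005 and 715333889 UMIs. The filters kept 16083 Tom- and 10600 Tom+ hepatocytes. Of the barcode sequences, 503 occurred in both libraries. Levels are given as CPM, the UMIs of a gene summed over the cells of a class scaled to a sum of 1000000 UMIs for that class. The assay reads transcripts with designed probes, so CPM values of different genes are not on a common scale.

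The portal-end cells carried the markers that their name calls for. Etnppl, which breaks down phosphoethanolamine and was not used to choose the cells, reached 301.2 CPM in Tom- and 322.4 CPM in Tom+ portal-end cells. In the other hepatocytes it stood at 116.3 and 84.5 CPM. Cells were then thinned to 5000 UMIs, which left out 291 Tom- and 139 Tom+ other hepatocytes that were shallower and no portal-end cell. Etnppl was seen in 74.7% of Tom- and 76.3% of Tom+ portal-end cells, against 40.2% and 25.6% of the other hepatocytes. Without thinning the shares were 99.0% and 99.2%, at median depths of 34343 and 43038 UMIs. In profiles outside the ranking with 10 or more UMIs of the leukocyte, endothelial and fibroblast genes, the thinned shares were 28.8% and 18.0% after 18 and 21 shallower profiles were left out, at median depths of 50875.5 and 85682 UMIs. These profiles also held abundant hepatocyte RNA, with albumin near that of hepatocytes at 116034 and 113721 CPM, so they are not a background free of hepatocytes.

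The genes of the rule differed because the rule used them, and their values are a description. Sds, which deaminates serine, stood at 2593 CPM in Tom- and 2765 CPM in Tom+ portal-end cells. Hal, which opens the breakdown of histidine, stood at 935.6 and 966.9 CPM. Central genes were low but not absent, with Cyp2e1 at 156.6 and 195.1 CPM against 1517 and 2313 CPM in the other hepatocytes. The median portal-end cell held 5 UMIs of Cyp2e1 in Tom- and 8 in Tom+.

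The limit of 15% fell inside a continuous range and marked no gap. The last cell inside had a score of -3.55, from 140 portal and 11 central UMIs among 41193. The first cell outside had the same score from 46 portal and 3 central UMIs among 7599, and 14 cells outside were tied with it. Within 0.25 of the limit lay 1030 portal-end cells and 1093 others. The members also had more UMIs than the other hepatocytes, with medians of 34343 and 43038 against 21280 and 32222.5. When the score came from cells thinned to 5000 UMIs, 69.6% of the members were chosen again.

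The portal end held 3224 of the Tom- hepatocytes, or 20.0% (95% exact Clopper-Pearson interval 19.4 to 20.7), and 778 of the Tom+ hepatocytes, or 7.34% (6.85 to 7.85). At the opposite end, the top 15% of the score, the order was turned, with 4.61% of Tom- and 30.8% of Tom+ hepatocytes. The next layer, from 15 to 30% of the score, held 14.6% of Tom- and 15.6% of Tom+ cells. The Tom+ share was again the lower in the layer from 30 to 50%, at 27.4% of Tom- and 8.84% of Tom+, and in the layer from 50 to 70%, at 22.4% and 16.3%, so a low Tom+ share was not particular to the portal end. The sort, the depth of each library and the mice behind it cannot be told apart from the group in these shares.

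**Figure D1:**
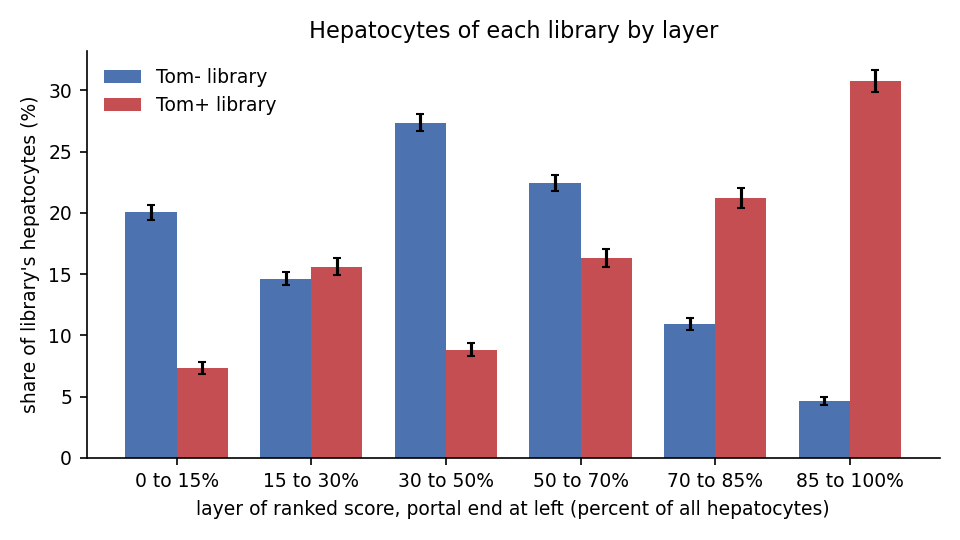
Share of each library's hepatocytes (y axis, percent) in 6 layers of the ranked score (x axis, portal end at left). Bars are Tom- and Tom+ libraries and error bars are exact 95% binomial intervals. The portal end holds 20.0% of Tom- and 7.34% of Tom+ cells.

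Portal-end cells were next compared with all other hepatocytes of their own library, to describe what else varied with the score. Of 7733 genes with enough counts, 93 were at least 1.5-fold higher at the portal end in both libraries and 206 were at least 1.5-fold lower, which is 1.2% and 2.66% of the genes. Genes of the rule are left out of these counts, but the same cells gave the score, and nothing is tested. At 2-fold the counts were 21 and 83. The median log2 ratio of all genes was -0.06 in Tom- and -0.12 in Tom+. With median-of-ratios scaling 129 genes were higher and 162 lower. The other hepatocytes had a median score of 3.07 in Tom+ and -0.16 in Tom-, so the portal end was set beside cells further toward the central end in Tom+.

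**Figure D2:**
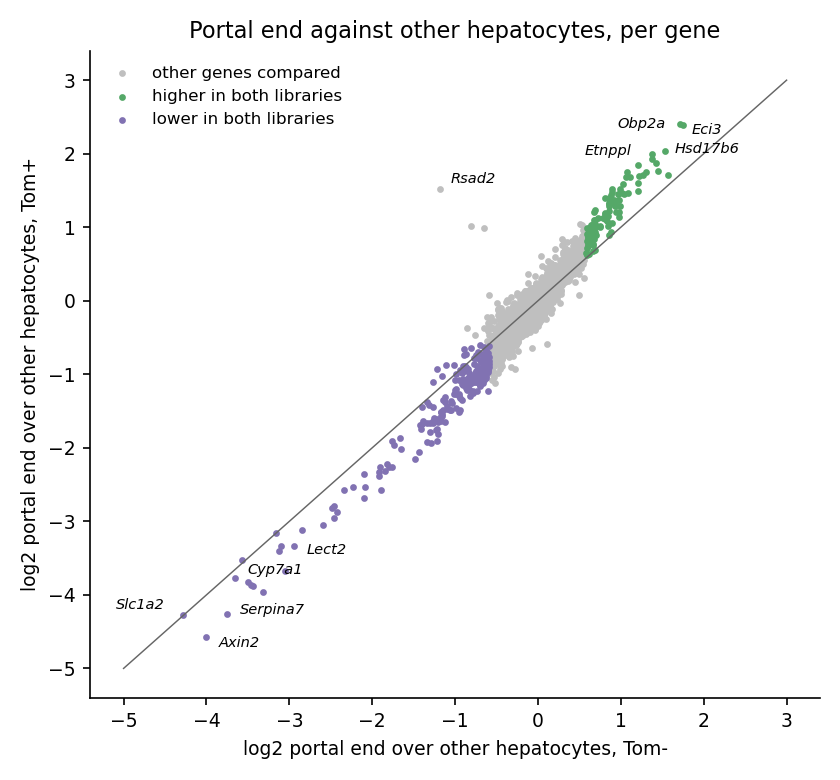
Log2 ratio of portal-end cells over other hepatocytes in the Tom- library (x axis) and the Tom+ library (y axis), 1 point per gene compared. Green points are the 93 genes higher and purple points the 206 genes lower by 1.5-fold in both, the line marks equal ratios, and Rsad2 lies apart with opposite signs.

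The genes that led the higher side belonged to several kinds of work. Eci3, an enoyl-CoA isomerase of fatty acid breakdown (chr13:34946614-34963810, mm10), was at 20.2 CPM in Tom- and 28.2 CPM in Tom+ portal-end cells, against 5.98 and 5.39 CPM elsewhere. Its log2 ratio was 1.75 (1.67 to 1.84) in Tom- and 2.38 (2.27 to 2.50) in Tom+. Hsd17b6, a hydroxysteroid dehydrogenase (chr10:127990936-128007611), was at 119.7 and 91.4 CPM, against 41.5 and 22.2 CPM elsewhere, and its log2 ratios were 1.53 and 2.04. In both libraries and for both genes the counting intervals of the 2 classes lay far apart.

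Several of these genes lie near each other in the genome. Sdsl, a relative of Sds, lies beside it on chromosome 5 (chr5:120458186-120472810) and was at 77.5 and 75.9 CPM, against 33.2 and 23.4 CPM elsewhere. Tsen54, a subunit of the tRNA splicing endonuclease (chr11:115814724-115823094), was at 267.1 and 278.5 CPM, against 111.4 and 85.5 CPM. Myo15b, a myosin gene 35.3 kb from it (chr11:115858406-115892603), was at 63.1 and 64.2 CPM, against 23.5 and 17.6 CPM. All 3 genes were thus at least 2-fold higher at the portal end in each library.

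A pair of lipocalin genes of chromosome 2 was among the leading 12. Obp2a, an odorant-binding lipocalin (chr2:25700043-25703326), was at 159.0 CPM in Tom- and 139.9 CPM in Tom+ portal-end cells, against 48.6 and 26.4 CPM elsewhere. Ptgds, the lipocalin-type prostaglandin D synthase (chr2:25466709-25470046), was at 859.2 and 741.1 CPM, against 373.4 and 245.4 CPM. The log2 ratios were 1.71 and 2.41 for Obp2a, and 1.20 and 1.59 for Ptgds. Lcn12, another lipocalin gene 20.8 kb from Ptgds, also passed the 1.5-fold limit in both libraries. Epithelial genes were present as well, with Cdh1, which encodes E-cadherin, at 60.3 and 49.7 CPM against 26.1 and 17.6 CPM. Krt4, a keratin, was at 36.9 and 42.4 CPM against 14.997 and 12.6 CPM. Cryl1 and Corin, an L-gulonate dehydrogenase and a membrane protease, completed the leading 12 with log2 ratios of 1.21 and 1.85, and of 1.11 and 1.68.

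The lower side was led by genes of the central vein, several of them Wnt targets. Slc1a2, a glutamate transporter (chr2:102658659-102790784), was at 2.08 CPM in Tom- and 5.23 CPM in Tom+ portal-end cells, against 40.5 and 101.4 CPM elsewhere. Its log2 ratios were -4.29 (-4.47 to -4.10) and -4.28 (-4.49 to -4.07). Axin2, a Wnt target and Wnt inhibitor (chr11:108920349-108950783), was at 3.22 and 3.69 CPM against 51.7 and 88.2 CPM. Tbx3, a transcription factor under Wnt control, was at 4.78 and 5.63 CPM against 54.3 and 80.2 CPM. Each of these genes was at least 10-fold lower at the portal end in both libraries.

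Secreted and metabolic central genes were low as well. Serpina7, which encodes thyroxine-binding globulin (chrX:139079257-139085236), was at 13.0 and 14.5 CPM against 174.7 and 279.2 CPM. Cyp7a1, the rate-limiting enzyme of bile acid synthesis (chr4:6265612-6275633), was at 20.5 and 40.4 CPM against 258.3 and 552.0 CPM. Nr1i3, the nuclear receptor CAR that drives drug metabolism, was at 16.6 and 14.8 CPM against 138.0 and 187.8 CPM. The glutamine transporter Slc1a5, the cytochrome Cyp2c55, the phosphatase Lhpp, the dicarboxylate transporter Slc13a3, the secreted protein Lect2 and the glutathione transferase Gstm3 made up the leading 12. Their log2 ratios ran from -3.46 for Slc1a5 to -2.85 for Gstm3 in Tom-, and from -3.97 for Lhpp to -3.12 for Gstm3 in Tom+.

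The promoters of 4 of these genes are shown as examples from the higher and the lower side, where the RefSeq and GENCODE starts were the same base. Of 24 leading genes 6 met this, and the 2 of these that held a motif are both among the 4 shown. Each is the 250 bases before the RefSeq start (GRCm38.p6, the patch release of mm10), 5′ to 3′ on the strand of the gene. Capitals mark matches to 4 short motifs searched on both strands: CTTTGA (TCF/LEF, the factors of Wnt signalling), CAAAGTC (HNF4A), GTTAAT (HNF1) and TATAAA (the TATA box). CTTTGA and CAAAGTC share bases where the first is read on the other strand, and the motifs were chosen after the gene values were known.
Etnppl, higher, chr3:130617198-130617447, plus strand: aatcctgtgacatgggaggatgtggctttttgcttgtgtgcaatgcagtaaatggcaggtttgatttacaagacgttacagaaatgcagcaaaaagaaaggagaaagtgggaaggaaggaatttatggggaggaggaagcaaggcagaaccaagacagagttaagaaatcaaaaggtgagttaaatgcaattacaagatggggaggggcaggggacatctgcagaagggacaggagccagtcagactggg
Axin2, lower, chr11:108920099-108920348, plus strand: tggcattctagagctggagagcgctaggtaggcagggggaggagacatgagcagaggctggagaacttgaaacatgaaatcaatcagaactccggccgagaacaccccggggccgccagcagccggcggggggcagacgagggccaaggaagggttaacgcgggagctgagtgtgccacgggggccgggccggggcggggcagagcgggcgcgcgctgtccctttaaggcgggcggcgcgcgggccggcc
Cyp2c55, lower, chr19:39006769-39007018, plus strand: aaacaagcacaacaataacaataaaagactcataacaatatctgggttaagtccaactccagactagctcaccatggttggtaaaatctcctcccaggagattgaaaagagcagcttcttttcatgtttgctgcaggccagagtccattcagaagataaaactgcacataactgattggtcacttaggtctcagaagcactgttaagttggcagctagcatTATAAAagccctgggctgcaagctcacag
Serpina7, lower, chrX:139085237-139085486, minus strand: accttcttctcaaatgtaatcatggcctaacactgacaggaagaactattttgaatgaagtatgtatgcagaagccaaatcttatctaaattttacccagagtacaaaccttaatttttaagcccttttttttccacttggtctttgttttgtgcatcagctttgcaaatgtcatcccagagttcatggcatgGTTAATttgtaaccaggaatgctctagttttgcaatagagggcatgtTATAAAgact

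Neither the Etnppl nor the Axin2 window held any of the 4 motifs. The Cyp2c55 window held TATAAA, and the Serpina7 window held GTTAAT and TATAAA. RefSeq windows were matched for 70 of the 93 higher genes, for 156 of the 206 lower genes and for 6156 of the 7733 genes compared. CTTTGA was found in 14.3% of the windows of higher genes, 11.5% of lower genes and 10.6% of all genes compared, and in 14.1% of all 27025 windows. TATAAA was found in 8.57%, 12.8% and 6.06% of the same sets and in 13.0% of all windows. CAAAGTC was found in 2.86%, 5.13% and 3.14%, and in 3.80% of all windows, and GTTAAT in 7.14%, 5.77% and 4.29%, and in 6.54% of all windows. A match is only a run of letters in this window.

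Gene lists were read by how many of their genes passed the 1.5-fold limit in both libraries, beside 1.2% higher and 2.66% lower over all genes. Of 23 portal (zone 1) markers compared, 10 were higher and 0 lower, with median log2 ratios of 0.55 in Tom- and 0.86 in Tom+. They were Etnppl, Gls2, Ass1, Asl, Hsd17b13, Ctsc, Mfsd2a, Ftcd, Fbp1 and Hsd17b6. Of 25 central (zone 3) markers, 24 were lower and 0 higher, with medians of -1.92 and -2.38. The median of the central list thus lay further from 0 than that of the portal list in both libraries. These lists were drawn up with earlier results of these data known and are no independent evidence.

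Urea and amino acid genes were higher at a few steps, beside 1.2% higher over all genes. Of 8 urea cycle genes, Ass1 and Asl, which form and cleave argininosuccinate, were higher, with Ass1 at 6529 and 7008 CPM against 3536 and 2581 CPM. Cps1, which fixes ammonia at the entry of the cycle, missed the limit at 2021 and 2156 CPM against 1693 and 1563 CPM. Of 18 genes on a list of histidine, serine and glutamine breakdown, Ftcd, Sdsl, Gls2 and Etnppl were higher and 0 were lower. Etnppl was put on this list although it breaks down phosphoethanolamine, and it is among the portal markers above as well. Gls2, the liver glutaminase, was at 302.8 and 365.5 CPM against 163.6 and 127.3 CPM. Of 25 other genes of amino acid breakdown only Got1 and Cbs were called, both higher.

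Glucose and fat genes were taken next, beside 1.2% higher and 2.66% lower over all genes. The counts called in these lists were small and are not read as results about the lists. Of 15 gluconeogenic genes, Fbp1 and the coactivator Ppargc1a were higher. Pck1, the enzyme that commits carbon to glucose, was at 8280 and 7597 CPM against 5662 and 4192 CPM, which was under 1.5-fold in Tom-. Among genes of glycolysis and lipogenesis, Acly, which supplies acetyl-CoA, was higher, at 761.2 and 772.6 CPM against 425.3 and 347.0 CPM. Pfkfb1, which sets the level of a glycolytic activator, was lower, at 31.0 and 30.4 CPM against 48.4 and 58.8 CPM. Of 19 genes of fatty acid oxidation 2 were lower, Acaa1b and Cyp4a14. None of 22 cholesterol synthesis genes and none of 26 respiratory chain genes passed the limit in either direction.

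Part of the drug-metabolism and glutathione lists was lower, beside 2.66% lower over all genes. Of 18 cytochromes and regulators of drug metabolism, 9 were lower and 0 higher, with Cyp2c29 at 733.7 and 726.8 CPM against 3951 and 5338 CPM. Cyp3a11 was at 4466 and 4309 CPM against 5899 and 5880 CPM and did not pass. Of 19 glutathione and NRF2 genes 7 were lower, among them Gstm1, Gstm2, Gstm3 and Gstm4, closely related genes whose separate counts are uncertain. Of 19 bile acid genes, Cyp7a1, Cyp27a1, Hsd3b7 and Slco1b2 were lower and 0 were higher. Of 30 plasma protein genes, A1bg was higher and Apoa1 lower, beside 1.2% higher and 2.66% lower over all genes. This is not read as a result about the list. The major product Alb was at 129056 and 132524 CPM against 114834 and 106747 CPM.

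In signalling and stress lists at most 2 genes passed in either direction, beside 1.2% higher and 2.66% lower over all genes, and such small counts are not read as results about the lists. Of 18 acute phase genes Il1rn was higher and Saa3 lower, and of 19 complement genes C6 was lower. Of 15 genes of the growth hormone and IGF axis Cish and Cux2 were higher and Igfbp2 lower. Of 9 repressor-phase clock genes Per2 was higher and Usp2 lower. Of 11 immediate early genes Klf6 and Myc were lower, and of 13 p53 targets and cell cycle inhibitors Cdkn1c was lower. None of 12 iron genes, 14 interferon genes and 3 LIFR ligands and receptors passed. A further list held genes chosen for qPCR in the same study, and it is no independent evidence. Of its 7 genes compared, 6 were lower.

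Against the next layer, from 15 to 30% of the score, nearly none of the genes compared differed by 1.5-fold. Of 7556 genes compared, 0 were higher in both libraries (0%) and 1 was lower (0.0132%), which was Nr1i3. Nr1i3 stood at 16.6 and 14.8 CPM at the portal end and at 38.8 and 23.3 CPM in the next layer. Obp2a was at 104.8 and 98.7 CPM in the next layer, which was 0.60 and 0.50 lower on the log2 scale than at the portal end. Eci3 was at 11.9 and 19.0 CPM there. Genes of the rule and genes under 10 CPM were outside this comparison. Among rule genes, Cyp2e1 was at 286.6 and 330.4 CPM in the next layer, against 156.6 and 195.1 CPM at the portal end. Cyp2f2 was at 213.7 and 325.1 CPM against 366.3 and 466.9 CPM. Axin2, under 10 CPM, was at 4.92 and 5.75 CPM against 3.22 and 3.69 CPM. The call of Nr1i3 was lost with the bottom 10% of the score and in cells with 0 UMIs of Ptprc, Pecam1 and Dcn. When the score came from other markers, 3 genes were higher and 4 lower, and Obp2a, Bmyc and Eci3 were among the 7.

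Levels were also compared inside the portal end. Portal-end cells were cut into 3 bins of 5% of the score each, with 1174, 1094 and 956 Tom- cells and 160, 240 and 378 Tom+ cells. Of 5612 genes with at least 20 CPM, 0 were 1.5-fold higher and 0 were 1.5-fold lower in the outermost than in the innermost bin in both libraries. Etnppl was at 316.5, 300.0 and 282.8 CPM in Tom- and at 311.2, 318.6 and 330.1 CPM in Tom+, so the 2 libraries ran in opposite directions. Cyp7a1 was at 17.6, 20.8 and 23.7 CPM in Tom- and at 27.5, 41.4 and 45.8 CPM in Tom+, lowest in the outermost bin in both. Slc1a2 was at 1.61, 2.24 and 2.49 CPM in Tom- and at 4.02, 5.47 and 5.64 CPM in Tom+, also lowest in the outermost bin in both. It was under 20 CPM and so outside the count of genes above. Most of the range of these genes lay beyond 15% of the score, with Slc1a2 at 187.4 and 218.6 CPM and Cyp7a1 at 758.4 and 937.4 CPM in the top layer.

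**Figure D3:**
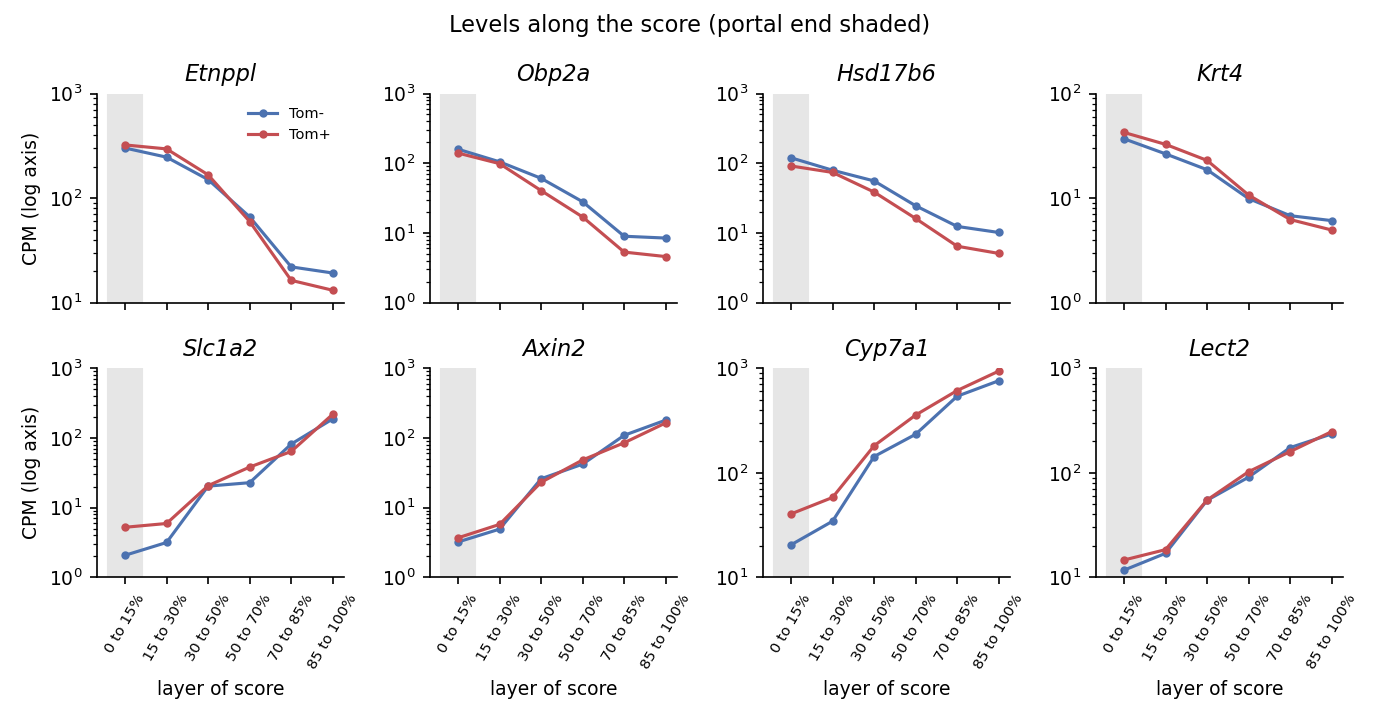
Levels (y axis, CPM, log axis) of 4 genes higher and 4 genes lower at the portal end across 6 layers of the score (x axis), with 1 line per library and the portal end shaded. In Tom- cells Etnppl stands at 301.2 CPM at the portal end, 246.3 CPM in the next layer and 19.2 CPM at the central end.

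The spread between portal-end cells was measured for genes with a mean of 0.1 UMIs or more per cell after thinning to 5000 UMIs in both libraries. The ratio of variance to mean over cells, which is 1 for pure counting noise, had a median of 1.03 in both libraries over 5594 genes. This ratio grows with the level of a gene, so genes of low level stay near 1 unless their spread is large. It was 2 or more in both libraries for 38 genes. Alb was first at 27.1 and 27.5. Ranked by the smaller value of the 2 libraries, Obp2a came second at 10.5 and 10.8 although its mean was only 0.75 and 0.656 UMIs per thinned cell.

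Obp2a RNA was concentrated in a minority of portal-end cells. In the unthinned counts 53.5% of Tom- and 47.3% of Tom+ portal-end cells had a UMI of Obp2a, and the highest cell held 664 and 316 UMIs. The unthinned shares were 37.5% and 22.2% in the shallower other hepatocytes. They were 46.0% and 38.5% in the deeper profiles with non-hepatocyte markers. The 10% of portal-end cells with the most Obp2a held 79.7% and 82.6% of all its UMIs in portal-end cells. Ptgds, also a lipocalin gene, was in 99.9% and 99.7% of portal-end cells, and the same number of top cells held 25.6% and 25.8% of its UMIs. Obp2a and Ptgds were thus both higher at the portal end, but they were spread over cells in different ways. Saa1, an acute phase gene, and A1bg, a plasma protein, were also among the 38, with ratios of 4.88 and 4.62, and of 3.66 and 4.47.

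**Figure D4:**
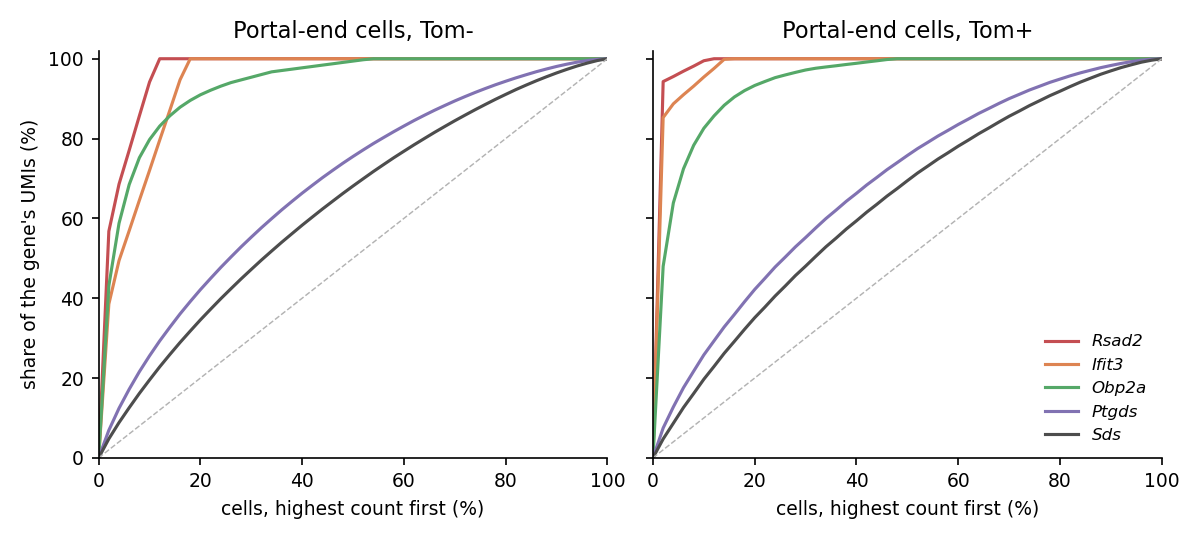
Cumulative share of the UMIs of a gene (y axis, percent) held by portal-end cells sorted from the highest count (x axis, percent of cells), for 5 genes in each library. The dashed line is an even spread, Sds and Ptgds lie nearest to it, and Rsad2, Ifit3 and Obp2a are held by few cells.

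The reporter separated the libraries at the portal end as elsewhere. tdTomato was at 62.9 CPM (61.5 to 64.4) in Tom- and 623.8 CPM (615.7 to 632.1) in Tom+ portal-end cells, a log2 ratio of 3.31 (3.27 to 3.35), or 9.91-fold. In thinned cells 28.0% of Tom- and 86.8% of Tom+ portal-end cells had a tdTomato UMI. The shares were 36.8% and 94.1% in other hepatocytes. In the profiles with non-hepatocyte markers they were 26.6% and 83.7%, so the Tom- share stood close to that of profiles of mixed origin. Without thinning 85.2% of Tom- and 99.9% of Tom+ portal-end cells had a tdTomato UMI, against 79.7% and 99.4% of the shallower other hepatocytes. The portal end had the lowest reporter level of the 6 layers in both libraries. In the top layer tdTomato reached 106.8 CPM in Tom- and 950.9 CPM in Tom+.

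**Figure D5:**
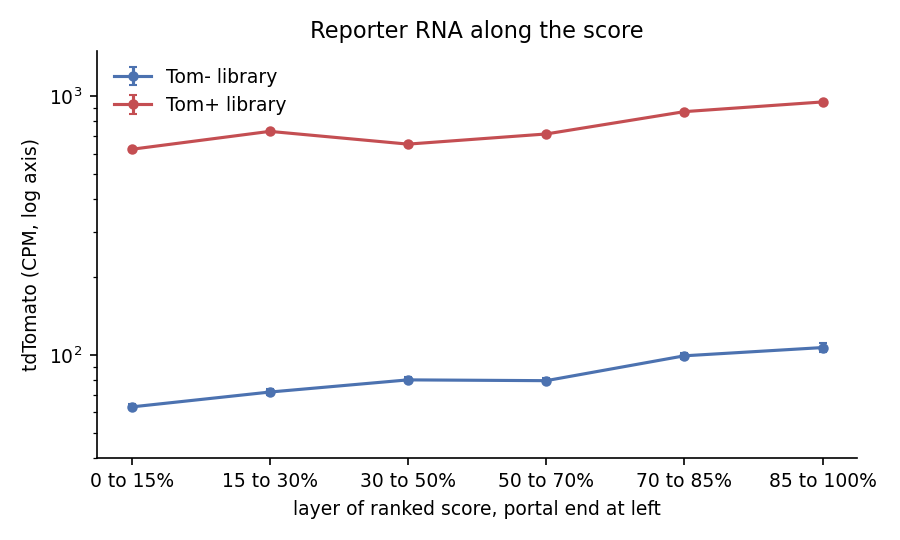
tdTomato level (y axis, CPM, log axis) in 6 layers of the score (x axis, portal end at left) for the Tom- and Tom+ libraries, with exact Poisson 95% intervals, mostly smaller than the points. The portal end is lowest in both, at 62.9 and 623.8 CPM.

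Genes of the p16 locus were barely detected in these cells. Cdkn2a, whose locus encodes p16Ink4a and p19Arf, gave 19 UMIs in Tom- and 8 in Tom+ portal-end cells, or 0.158 and 0.224 CPM, and its ratio on the log2 scale, 0.50, had an interval from -0.90 to 1.76 that spans 0. A separate custom entry for p16 gave 41 and 16 UMIs, or 0.341 and 0.448 CPM, with 0.40 (-0.54 to 1.26) on the same scale. This depth could not resolve a difference in either. Cdkn1a, the p21 gene and another cell cycle inhibitor, was at 104.5 CPM in Tom- and 76.8 CPM in Tom+. The cytokine genes Ctf1 and Clcf1, ligands of the LIF receptor complex, were low, at 5.53 and 5.46 CPM and at 2.18 and 2.58 CPM. Lif gave 2 and 1 UMIs and no ratio is given. Lifr, the receptor, was at 1108 and 967.5 CPM.

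Beyond the reporter, Tom+ and Tom- portal-end cells were much alike in their summed counts. Of 7635 genes compared, 22 were at least 1.5-fold higher in Tom+ (0.288%) and 8 at least 1.5-fold lower (0.105%), and the median log2 ratio was -0.03. The number lower was 1 with each library ranked alone or without Cyp2e1 and Cyp2f2 in the score, 4 for the bottom 20% or with thinned scores, and 15 with Tom- cells weighted to the score of Tom+ cells. The largest ratios belonged to interferon-induced genes. Rsad2, the antiviral gene viperin (chr12:26442746-26456452), was at 6.26 CPM in Tom- and 33.3 CPM in Tom+ cells, a log2 ratio of 2.41. Ifit3 and Ifit3b, with Cmpk2 beside Rsad2, followed at 1.46, 1.98 and 1.23.

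A handful of cells held this interferon signal. In Tom+ portal-end cells 3 of 778 cells held 1060 of the 1188 UMIs of Rsad2, which is 89.2%, with 454, 436 and 170 UMIs each. The highest 3 cells of Ifit3 held 71.0% of its UMIs. Cells with 100 or more UMIs of Rsad2 and Ifit3 together made up 0.386% (0.0796 to 1.12) of Tom+ and 0.0620% (0.00751 to 0.224) of Tom- portal-end cells. These were 3 and 2 cells. Such cells occurred among other hepatocytes too, with 12 Tom+ cells (0.122%) and 12 Tom- cells (0.0933%). An alternative without those of the portal end was chosen after the values were seen. The log2 ratio was then -0.35 for Rsad2, -0.16 for Ifit3, -0.27 for Ifit3b and -0.43 for Cmpk2. The number of genes higher in Tom+ was then 18, and the number lower was 8.

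Among the other leading genes were enzymes of detoxification and bile acid synthesis. Gstm3, a glutathione transferase, was at 22.2 CPM in Tom- and 44.3 CPM in Tom+, which is 1.00 (0.91 to 1.09) on the log2 scale. Cyp7a1 reached 20.5 and 40.4 CPM, which is 0.98 (0.89 to 1.08) on that scale. Both are central genes that stood near their lowest level at the portal end. In the next layer Gstm3 was at 28.2 CPM in Tom- and 57.2 CPM in Tom+, and Cyp7a1 at 34.5 and 58.1 CPM. Neither difference was thus particular to the portal end. With Tom- cells weighted to the score of Tom+ cells and under the other alternatives tried, the log2 ratio stayed between 0.94 and 1.21 for Gstm3 and between 0.89 and 1.20 for Cyp7a1. Gstm1 and Cyp8b1, the sterol 12-alpha-hydroxylase, were also higher, with log2 ratios of 0.68 and 0.82.

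Of 19 central markers compared between the libraries, Cyp7a1, Gstm3 and Gstm1 were higher in Tom+ and 0 were lower, with a median of 0.05. Over all genes 0.288% were higher and 0.105% lower. The rest of the 30 listed were below the limits for comparison, among them Slc1a2 at 2.08 and 5.23 CPM and Axin2 at 3.22 and 3.69 CPM. Tom+ portal-end cells also lay further toward the central end, with a median score of -3.89 against -4.10 in Tom-. Of 23 portal markers 0 were called in either direction, with a median of 0.05. Orm3, an acute phase gene, was at 9.69 and 21.1 CPM, and Dbp, a transcription factor of the clock output, at 11.6 and 23.2 CPM. The highest 3 Tom+ cells held 5.18% of the Orm3 and 4.95% of the Dbp UMIs, far less than for Rsad2. Of 9 repressor-phase clock genes Dbp was the only one past the limit, and of 5 activator-phase genes 0 were. Of 5 genes compared from the qPCR list, Gstm1, Cd63 and Gstm3 were higher. Of 13 mitochondrial transcripts compared, mt-Co1, mt-Atp6 and mt-Nd4l were higher in Tom+, with log2 ratios of 0.83, 0.68 and 0.60. The others lay between 0.01 for mt-Cytb and 0.54 for mt-Atp8, and the median mitochondrial share per cell was 1.24% in Tom- and 1.41% in Tom+. Cells of both fractions had been sorted as positive for a mitochondrial dye, and its part in these ratios was not tested.

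Fos, an immediate early gene, had the largest ratio in the other direction, at 25.9 CPM in Tom- and 9.01 CPM in Tom+, a log2 ratio of -1.52 (-1.69 to -1.36). Under the alternatives tried the log2 ratio of Fos ran from -1.69 to -1.09, which goes beyond this counting interval. Fos was seen in 25.7% of Tom- and 17.1% of Tom+ cells without thinning, at median depths of 34343 and 43038 UMIs. The highest 3 cells held 7.26% of its 3115 UMIs in Tom- and 28.9% of its 322 UMIs in Tom+. In the next layer Fos was at 24.1 CPM in Tom- and 9.46 CPM in Tom+, so this difference was not particular to the portal end. None of the other 8 immediate early genes compared was called. The remaining genes lower in Tom+ were Sdc3, Cd5l, Msn, Clec4f, Cd163, Axl and Tyrobp, with log2 ratios from -0.77 for Sdc3 to -0.61 for Tyrobp. Cd5l, Clec4f and Cd163 are markers of liver macrophages. Like them, Sdc3, Msn, Axl and Tyrobp were highest between 30 and 70% of the score in both libraries. All of these genes were lower in Tom+ in each of the 6 layers, so the differences were not particular to the portal end.

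Of 12 macrophage markers 5 had enough counts to compare, and Clec4f, Cd5l and Cd163 were lower in Tom+, beside 0.105% lower over all genes. All 12 were above 0, and their sum was 275.0 CPM in Tom- and 179.7 CPM in Tom+ portal-end cells, of which Cd5l alone gave 124.3 and 76.5 CPM. In other hepatocytes it was 448.7 and 267.4 CPM, and in profiles with non-hepatocyte markers 1918 and 1158 CPM. The part of macrophage RNA in the genes lower in Tom+ was not tested. In cells with 0 UMIs of Ptprc, Pecam1 and Dcn, 9 genes were lower in Tom+. Without portal-end cells with 3 or more UMIs of Cd5l, Clec4f and Vsig4, an alternative chosen after the values were seen, 7 genes were lower and 25 higher. This kept 1590 of 3224 Tom- and 457 of 778 Tom+ portal-end cells, 51.15% of all.

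Markers of other cell types were summed as well, in cells that the filter on Ptprc, Pecam1 and Dcn had already kept low in these types. The endothelial sum was 133.8 and 98.2 CPM, the stellate and fibroblast sum 36.6 and 26.3 CPM, and the sum of other leukocyte markers 3.56 and 1.93 CPM. Each was lower than in the other hepatocytes of the same library. The sums include Pecam1, Dcn and Ptprc, which the filter holds to 2 UMIs at any depth, so it allows less CPM in deeper cells. Portal-end cells were deeper, with median UMIs of 34343 and 43038 against 21280 and 32222.5. The lower sums were thus partly set by the filter, and no conclusion is drawn from them. The cholangiocyte sum was 49.3 and 43.0 CPM against 36.0 and 31.8 CPM elsewhere, but of 2 of its genes compared 0 passed the limit. Its leading gene was Pkhd1, at 16.5 and 16.2 CPM against 12.7 and 11.7 CPM. Krt19, a defining keratin of bile duct cells, stood at 0.199 and 0.0840 CPM, and Krt7 at 0.266 and 0.0280 CPM.

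Sox9, a gene of bile duct cells and of hepatocytes beside them, was at 9.46 CPM in Tom- and 7.33 CPM in Tom+ portal-end cells, against 5.14 and 3.89 CPM elsewhere. Its log2 ratios were 0.88 (0.77 to 0.99) and 0.92 (0.72 to 1.11), past the 1.5-fold limit in both libraries. Sox9 was under 10 CPM, so the counts of genes compared from the cholangiocyte and the hybrid hepatocyte lists leave it out. In thinned cells 3.85% and 4.37% of portal-end cells had a Sox9 UMI, against 2.58% and 1.76% of other hepatocytes and 1.71% and 1.22% of profiles with non-hepatocyte markers. Of 6 genes compared from a list of Notch and portal hybrid hepatocyte genes, Cdh1 was higher and 0 were lower. Cycling markers summed to 16.4 and 13.8 CPM at the portal end, against 20.7 and 17.0 CPM elsewhere. Hamp, the hepcidin gene of the middle zone, was at 110.0 and 99.3 CPM against 122.9 and 107.4 CPM. Igfbp2, another middle-zone marker, was lower at 241.8 and 203.3 CPM against 485.9 and 430.0 CPM.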

How the data were processed

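Hepatocytes of 2 libraries were measured with a probe-based 10x Flex assay, and the authors deposited the values as UMI counts per gene and cell. The submitters' processing notes name Cell Ranger 7.2.0 and mm10. Samples were grouped by their labels, with 1 library per group. Counts were summed per class and scaled to CPM over all 19073 features. Poisson intervals of levels, conditional intervals of ratios and Clopper-Pearson intervals of shares were exact and at 95%.

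Genes were compared at 10 CPM or more in either class and 20 UMIs or more over both, with 0.5 UMIs added to each sum, and counted at 1.5-fold, in both libraries for the portal end. Genes of the rule and custom features were left out. Named genes were the 12 highest and 12 lowest ratios at 20 CPM or more in both libraries, and the 8 highest and 8 lowest between Tom+ and Tom-, without markers of other cell types, beside genes of fixed lists. Cd5l and other genes outside this rule were named after their values were seen. The members and lists were chosen with earlier results of these data known. Cells were thinned to 5000 UMIs with a fixed seed, and doublets were not removed. Gene positions came from GENCODE M21 and promoters from RefSeq. Scripts used Python 3.11.15, numpy 2.4.6, scipy 1.17.1 and pandas 2.3.3 and were tested on simulated data. Results that need certain withheld genes are not reported here.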

Additional observations from a re-analysis of the deposited data

Results flagged for a closer look

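For 5 interferon-induced genes the ratio of portal-end cells over other hepatocytes was at least 1.5-fold in opposite directions in the 2 libraries, while 0 of the 14 interferon genes compared passed the limit in both. The log2 ratio of Rsad2 was -1.18 in Tom- and 1.52 in Tom+, that of Ifit3 was -0.81 and 1.02, and that of Ifit3b was -0.59 and 1.55. It was -0.65 and 0.99 for Cmpk2, and -0.83 and 0.89 for Ifit2. With thinned scores the Tom+ ratio was -0.29 for Rsad2, -0.071 for Ifit3 and -0.37 for Cmpk2. The difference between the libraries was not tested, and 3 Tom+ cells held 89.2% of the Rsad2 UMIs.

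Features that the comparisons did not use gave counts as well. A custom feature for the L1Md_A repeat stood at 2774 CPM in Tom- and 2925 CPM in Tom+ portal-end cells. A custom entry for p16 stood at 0.341 and 0.448 CPM.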

How the results depend on the processing

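No paired analysis was possible because there was a single library in either arm, and no replicate could be left out. Depth limits Cdkn2a and Lif, and intervals cover counting error only. Of the log2 ratios of named genes under the alternatives, 1164 stayed inside the counting interval of the main value. A further 758 lay outside it, and 8 turned to the other direction. The Tom- and Tom+ shares were 14.1% and 3.77% for the bottom 10%, 25.2% and 12.2% for the bottom 20%, 18.9% and 9.06% with thinned scores, and 18.6% and 9.58% with other markers. With 3000 to 8000 genes per cell the Tom+ share was 6.80%. The tdTomato log2 ratio was 3.43 with each library ranked alone, 3.35 with thinned scores, 3.40 with other markers, 3.35 with median-of-ratios scaling and 3.35 without members with 3 or more macrophage UMIs. Genes lower in Tom+ numbered 4 for the bottom 20% and with thinned scores, 1 with each library ranked alone and without Cyp2e1 and Cyp2f2, and 15 with weighted cells. At 50 CPM, with no CPM minimum and at 2-fold, genes higher at the portal end numbered 52, 228 and 21, and genes lower 89, 1325 and 83. At the same settings genes higher in Tom+ numbered 5, 241 and 5, and genes lower 1, 686 and 1. Against the next layer, 3 genes were higher and 4 lower with other markers, 1 higher and 0 lower at 0 UMIs of Ptprc, Pecam1 and Dcn, and 0 lower for the bottom 10%. With thinned scores the Tom+ portal ratio was -0.29 for Rsad2, -0.071 for Ifit3 and -0.37 for Cmpk2, and the Tom+ over Tom- ratio of Cmpk2 was -0.016. Without cells with 100 or more UMIs of Rsad2 and Ifit3 the last ratio was -0.43, with -0.35 for Rsad2, -0.16 for Ifit3 and -0.27 for Ifit3b. Leaving out those cells or the macrophage UMI cells, and every next-layer alternative, was chosen after seeing the data. The cause of these shifts was not tested.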

Other observations

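Genes higher at the portal end often had another such gene within 100 kb. This held for 17 of 93 genes (18.3%), against 141 of 7639 genes that were not higher (1.85%). The groups were Caskin2, Tsen54 and Myo15b on chromosome 11, Paxx, Ptgds and Lcn12 as well as Bmyc and Obp2a on chromosome 2, Sco2, Odf3b and Arsa as well as Rida and Pop1 on chromosome 15, Mfsd2a and Mycl on chromosome 4, and the overlapping Ugt1a8 and Ugt1a9. Among lower genes it held for 28 of 206 (13.6%), against 377 of 7526 (5.01%), and many of these pairs were related genes such as Gstm1 to Gstm4 or Cyp2c37, Cyp2c50 and Cyp2c54. The shares are descriptions and were not tested.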
